A study of Homo sapiens with 16 samples.

Results

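The uroplakin genes UPK1A, UPK1B, UPK2, UPK3A and UPK3B were followed by name through the count and TPM tables of a FOXA1 knock-down experiment in bladder cancer cells. They are 5 of the 58721 genes in the tables, and 4 of them had counts in at least 1 of the 16 libraries. UPK3A had none. The experiment used RT112, a Luminal (LumP) bladder cancer cell line grown in RPMI with 10% FBS, and SCaBER, a Basal (Ba/Sq) line grown in DMEM with 10% FBS, so that line and medium cannot be told apart. Each line was transfected with 1 of 4 small interfering RNAs (siRNAs), which degrade the transcript they match: 2 of them target FOXA1 and are called siFOXA1.1 and siFOXA1.2, and 2 are controls called siControl.1 and siControl.2. The labels give 10 nM of siRNA, and the methods of the study give 10 ng. Each siRNA has 2 libraries per line, labelled as experiment batch replicates 1 and 2, made from the 3′ ends of transcripts. Nothing states that the replicates were separate cultures, so the p-values measure the spread between these libraries, which may be technical.

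Uroplakins are membrane proteins of the urothelium, the lining of the bladder. UPK1A and UPK1B belong to the tetraspanins, proteins that cross the membrane repeatedly, and each pairs with a partner that crosses it once: UPK1A with UPK2, and UPK1B with UPK3A or UPK3B. The pairs leave the endoplasmic reticulum together and assemble into plaques that cover the apical surface of the superficial umbrella cells, where they contribute to the permeability barrier. In bladder cancer, uroplakin expression marks Luminal differentiation. FOXA1 is a forkhead transcription factor of Luminal cells.

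Library totals ranged from 6622473 to 7604581 counts in RT112 and from 4528513 to 6914951 in SCaBER. Counts divided by the library total are given as CPM. A floor of 3 counts was taken as the limit of detection and equals 0.394 to 0.453 CPM for RT112 libraries and 0.434 to 0.662 CPM for SCaBER libraries, which covers counting error only. Mitochondrial genes took 25.7% and 28.2% of the counts in the RT112 siFOXA1.1 libraries and 18.0% to 21.2% in the other RT112 libraries. Under siControl, 4 of 4 tested Luminal line markers were higher in RT112, where 20.6% of the 14036 genes tested were called higher. Of 6 basal line markers, 5 were higher in SCaBER. In either direction 5940 genes were called, 48.8% of them higher in RT112. The basal line marker DSG3 had 0 counts in RT112, so it entered only through SCaBER and its direction was set in advance. KRT20, a keratin of umbrella cells, had 0 counts in the siControl libraries of both lines. Over all libraries KRT20 stayed at 0 in SCaBER but not in RT112, where it had too few counts to be tested.

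The sequences before the starts of UPK1A, UPK1B and UPK3B are shown because FOXA1 binds DNA and only these members had a promoter entry. These members responded unequally to the siRNAs against FOXA1, as described further on. The sequences are the 250 bases upstream of the RefSeq gene start on GRCh38.p14, on the plus strand in each case. They are in lower case, with matches to the motifs searched in capitals. The forkhead motif was searched as TNTTTAC and the motif of GATA factors as AGATAA. The motif shared by KLF and SP factors was searched as GGGCGG and the grainyhead motif as AACCGGTT. The TATA box was searched as TATAAA, and every motif was sought on both strands.
UPK1A, chr19:35666267-35666516: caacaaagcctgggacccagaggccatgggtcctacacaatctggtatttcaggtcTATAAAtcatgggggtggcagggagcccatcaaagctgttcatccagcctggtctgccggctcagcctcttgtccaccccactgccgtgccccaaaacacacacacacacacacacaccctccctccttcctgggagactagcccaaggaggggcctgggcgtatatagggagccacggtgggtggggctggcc
UPK1B, chr3:119173348-119173597: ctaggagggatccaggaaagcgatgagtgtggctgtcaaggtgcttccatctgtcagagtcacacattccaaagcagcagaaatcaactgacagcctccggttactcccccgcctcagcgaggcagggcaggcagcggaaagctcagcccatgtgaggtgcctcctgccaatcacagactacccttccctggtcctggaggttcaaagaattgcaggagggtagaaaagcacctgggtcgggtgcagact
UPK3B, chr7:76510302-76510551: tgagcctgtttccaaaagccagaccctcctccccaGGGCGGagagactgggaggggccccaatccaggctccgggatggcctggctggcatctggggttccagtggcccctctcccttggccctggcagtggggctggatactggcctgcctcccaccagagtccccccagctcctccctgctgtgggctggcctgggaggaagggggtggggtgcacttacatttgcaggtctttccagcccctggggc
The capitals mark TATAAA in UPK1A, starting 194 bases before the gene start, and GGGCGG in UPK3B, starting 215 bases before it. Both are matches of letters, and whether either acts as a promoter element was not tested. No form of the TATA box other than TATAAA was searched, so tatata near the end of the UPK1A sequence stayed in lower case. TATAAA was present in 10.7% and GGGCGG in 42.6% of 35116 RefSeq promoters in windows of the same length. The forkhead letters, found in 9.58% of promoters, the GATA letters (9.17%) and the grainyhead letters (0.117%) were not in these 3 windows. The paper reports that FOXA1 bound mostly outside promoters in other bladder cancer cell lines, and no sequence outside these windows was searched. The GC content was 60% for UPK1A, 56.8% for UPK1B and 67.2% for UPK3B, against a median of 58% over all promoters. UPK2 and UPK3A were not in the promoter table.

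The genes lie on 5 chromosomes. On GRCh38.p14, UPK1A spans chr19:35666517-35678481, UPK1B chr3:119173598-119205143, UPK2 chr11:118956298-118958559, UPK3A chr22:45284949-45295874 and UPK3B chr7:76510552-76516522. Rows that could share reads with them were nearly empty. UPK3BL1, UPK3BL2, the pseudogene UPK3BP1 and the antisense gene UPK1A-AS1 had 0 counts in all 16 libraries, and the read-through transcript DTX2P1-UPK3BP1-PMS2P11 had 11 counts in 1 library.

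The knock-down was checked first. In RT112, FOXA1 stood at 34.98 and 29.4 CPM under siControl.1 and 18.2 and 28.4 CPM under siControl.2. It stood at 1.32 and 3.24 CPM under siFOXA1.1 and at 9.18 and 16.0 CPM under siFOXA1.2. The 4 siFOXA1 libraries lay below the 4 siControl libraries. The mean fell to 8.21% of the siControl mean under siFOXA1.1 (log2 fold change -3.45, SE 0.47, adjusted p = 1.39e-05, edgeR's quasi-likelihood test with Benjamini-Hochberg adjustment over 13462 genes). Under siFOXA1.2 it was 45.3% of the siControl mean, which did not pass the threshold of 0.05 (log2 fold change -1.10, SE 0.39, adjusted p = 0.215 in the same test). In SCaBER, FOXA1 had 3 to 15 counts per siControl library and 0 to 6 per siFOXA1 library, at or near the floor, so the knock-down could not be measured with precision there.

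Without FOXA1 siRNA, RT112 expressed 4 of the 5 uroplakins and SCaBER expressed mainly UPK2. Levels of different genes are given on 2 scales, since the deposited TPM divide by gene length, whereas a 3′ library reads about 1 end per transcript, for which CPM is the closer scale. In TPM, UPK1B had the highest mean in RT112 siControl at 966 ± 140 TPM (SD, n = 4), followed by UPK2 at 588 ± 236 TPM (SD, n = 4). UPK3B reached 33.7 ± 19.5 TPM and UPK1A 28.8 ± 6.1 TPM (SD, n = 4 each). In CPM the means were 1115 ± 129 for UPK1B, 336 ± 144 for UPK2, 46.5 ± 28.0 for UPK3B and 20.2 ± 4.94 for UPK1A (SD, n = 4 each), in the same order. By mean TPM these levels placed UPK1B at rank 70, UPK2 at 119, UPK3B at 2317 and UPK1A at 2686 of the 18267 genes above 0, and by mean CPM at ranks 74, 390, 3791 and 6450. UPK1B and UPK2 overlapped in TPM but not in CPM. UPK1B ranged from 830 to 1128 TPM and UPK2 from 344 to 845 TPM, against 991 to 1278 CPM and 190 to 491 CPM. UPK3B and UPK1A overlapped on both scales, from 13.3 to 58.15 and from 22.8 to 35.65 in TPM and from 17.4 to 81.5 and from 15.3 to 25.7 in CPM. Both lay below UPK1B and UPK2 without overlap on either scale. In RT112 the tetraspanin UPK1B thus stood well above its partners UPK3B and UPK3A on both scales, and the tetraspanin UPK1A well below its partner UPK2.

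In SCaBER the order differed, with UPK2 at 31.6 ± 10.8 TPM under siControl (SD, n = 4) and the other members at 0.315 TPM or less on average. UPK1A had 0 counts in 8 of 8 libraries, which allows at most 0.434 to 0.662 CPM. UPK1B had 0 to 4 counts per library, and 1 of 8 libraries reached the floor. UPK3B had 0 to 3 counts in 7 libraries and 15 counts (2.31 CPM) in siFOXA1.2 replicate 1, whereas siFOXA1.2 replicate 2 had 0. UPK2 alone was above the floor in 8 of 8 SCaBER libraries, with 17 to 114 counts. UPK3A had 0 counts in 16 of 16 libraries, so it was not detectable in either line at this depth.

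**Figure D1:**
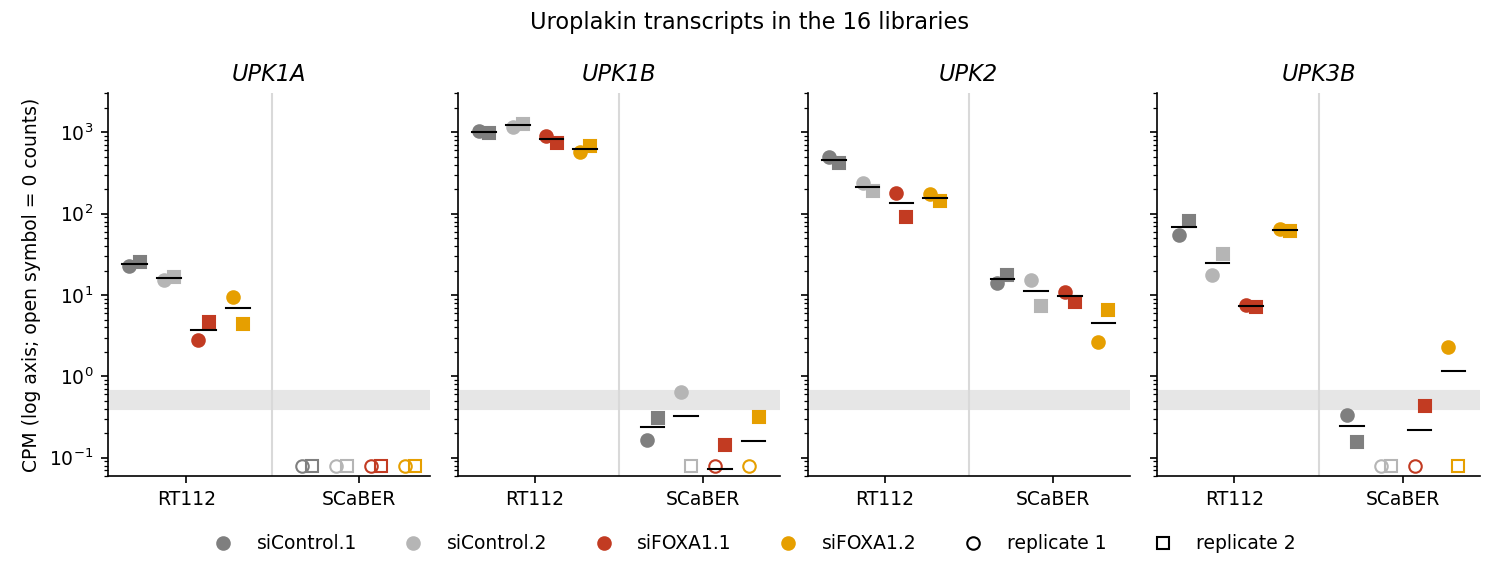
CPM of each uroplakin with counts (log axis) in the 8 RT112 and 8 SCaBER libraries, by siRNA (colour) and replicate (symbol), with the mean of each siRNA as a bar, 0 counts as open symbols at the bottom and the floors of 3 counts as a grey band. In RT112 the members sit between 2.78 CPM (UPK1A) and 1278 CPM (UPK1B), and in SCaBER only UPK2 stays above the band in every library.

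The comparison of the lines under siControl asked how far uroplakin expression separates the Luminal from the Basal line. In RT112, 4 of the 4 members tested were higher, where 20.6% of the 14036 genes tested were called higher in RT112. UPK1A, UPK1B and UPK3B had too few counts to be tested within SCaBER, so they entered this comparison only through RT112. Their direction was thereby set in advance, and only for UPK2 was the outcome open. UPK2 was at 491, 424, 238 and 190 CPM in RT112 and at 14.1, 17.8, 15.4 and 7.29 CPM in SCaBER. The lines did not overlap, and the log2 difference of UPK2, RT112 over SCaBER, was 4.63 (SE 0.33, adjusted p = 2.82e-08, edgeR's quasi-likelihood test with Benjamini-Hochberg adjustment). For members at or near the floor in SCaBER only counting ratios can be given. UPK1A was at least 38.2-fold higher in RT112, against a floor of 3 counts per SCaBER library. From summed counts, UPK1B was 3687-fold higher (7 SCaBER counts, exact 95% interval 1789 to 9170) and UPK3B 351-fold higher (3 SCaBER counts, 120.0 to 1707), with intervals that cover counting error only. Each of these 4 members had its lowest RT112 siControl library above its highest SCaBER siControl library (exact permutation p = 0.0286 for each, two-sided, the smallest that 70 splits allow), as did 19.5% of all genes tested. For UPK1A, UPK1B and UPK3B this lack of overlap was favoured by the same entry through RT112.

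Under siFOXA1.1 the uroplakins of RT112 fell together: 4 of the 4 members tested were lower than under siControl, where 15.1% of the 13462 genes tested were called lower and 29.1% were called in either direction. Their log2 fold changes had a median of -1.68, against -0.02 over all genes tested. Under siFOXA1.2 the members divided. UPK1B and UPK2 fell, which is 2 of 4 tested where 0.899% of all genes were called lower and 1.78% in either direction, UPK1A was lower without passing the test, and UPK3B was not lower. Percentages of siControl given for single members are ratios of mean CPM, whereas log2 fold changes come from the fit, which also scales the libraries by TMM, so the 2 can differ slightly. Both comparisons use the same 4 siControl libraries, and in bulk RNA fewer cells expressing a gene and less RNA per cell cannot be told apart.

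UPK1A, the tetraspanin that pairs with UPK2, was at 23.01 and 25.7 CPM under siControl.1 and 15.3 and 16.8 CPM under siControl.2 in RT112. It was at 2.78 and 4.71 CPM under siFOXA1.1 and at 9.33 and 4.37 CPM under siFOXA1.2. The siFOXA1 and siControl libraries did not overlap, and the lowest was siFOXA1.1 replicate 1. Under siFOXA1.1 UPK1A fell to 18.6% of its siControl CPM (log2 fold change -2.27, SE 0.47, adjusted p = 0.000953 by edgeR's quasi-likelihood test). Under siFOXA1.2 it was at 33.9%, which did not pass (log2 fold change -1.51, SE 0.44, adjusted p = 0.100 by edgeR's quasi-likelihood test). With DESeq2 the siFOXA1.2 change was called (log2 fold change -1.52, adjusted p = 0.0478). Without siFOXA1.1 replicate 1 or replicate 2 in the edgeR fit, which leaves the siFOXA1.2 libraries as they were, it stayed at -1.52. Over all libraries left out singly it ranged from -2.16 to -1.07. Counts of UPK1A were low, 19 to 64 per siFOXA1 library.

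UPK1B, the tetraspanin that pairs with the UPK3 proteins, was at 1035 and 991 CPM under siControl.1 and 1154 and 1278 CPM under siControl.2. It was at 910 and 734 CPM under siFOXA1.1 and at 578 and 678 CPM under siFOXA1.2. The siFOXA1 libraries again lay below the siControl libraries without overlap, with siFOXA1.1 replicate 1 closest to the controls. The change was small under siFOXA1.1, to 73.7% of siControl (log2 fold change -0.31, SE 0.10, adjusted p = 0.0212, edgeR), and larger under siFOXA1.2, to 56.3% (log2 fold change -0.80, SE 0.10, adjusted p = 8.6e-05, edgeR). Tested directly, UPK1B under siFOXA1.1 exceeded its level under siFOXA1.2, with a log2 difference of 0.49 (SE 0.11, adjusted p = 0.00302, edgeR). FOXA1 itself differed between them the other way, by -2.35 on the same scale (SE 0.50, adjusted p = 0.00154, edgeR). The siFOXA1.1 change of UPK1B was no longer called without siFOXA1.1 replicate 2 (log2 fold change -0.20, adjusted p = 0.210, edgeR), and the difference between the siRNAs was not called without siFOXA1.2 replicate 1 (log2 difference 0.37, adjusted p = 0.0547, edgeR).

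UPK2, the partner of UPK1A, was at 491 and 424 CPM under siControl.1 but at 238 and 190 CPM under siControl.2. It was at 181 and 91.5 CPM under siFOXA1.1 and at 173 and 143 CPM under siFOXA1.2. The siFOXA1 libraries again did not overlap with the siControl libraries, but siControl.2 replicate 2 was only slightly above siFOXA1.1 replicate 1. UPK2 fell to 40.5% of siControl under siFOXA1.1 (log2 fold change -1.09, SE 0.19, adjusted p = 0.000194, edgeR) and to 46.99% under siFOXA1.2 (log2 fold change -0.97, SE 0.19, adjusted p = 0.00757, edgeR). The siRNAs against FOXA1 did not differ detectably from each other (log2 difference -0.11, adjusted p = 0.752, edgeR), and the UPK2 call under siFOXA1.2 was lost with DESeq2 (log2 fold change -0.97, adjusted p = 0.0507) and with limma on TPM (-0.99, adjusted p = 0.398). The UPK1B call under siFOXA1.2 was likewise lost with limma on TPM (-0.83, adjusted p = 0.247), in each case with a fold change as large as in edgeR. Without siFOXA1.1 replicate 1 the difference of UPK2 between the siRNAs was -0.66 and was called (adjusted p = 0.0021, edgeR's quasi-likelihood test).

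UPK3B, a partner of UPK1B, was at 55.1 and 81.5 CPM under siControl.1 and 17.4 and 32.0 CPM under siControl.2. It was at 7.62 and 7.22 CPM under siFOXA1.1 and at 64.7 and 61.2 CPM under siFOXA1.2. The siFOXA1.1 libraries lay below all others, whereas the siFOXA1.2 libraries lay within the range of siControl.1. UPK3B fell to 15.9% of siControl under siFOXA1.1 (log2 fold change -2.34, SE 0.30, adjusted p = 6.73e-06, edgeR), and was at 135% under siFOXA1.2, which did not pass (log2 fold change 0.63, SE 0.25, adjusted p = 0.289, edgeR). The difference between the 2 siRNAs was -2.98 on the log2 scale (SE 0.33, adjusted p = 1.69e-06, edgeR), the largest between them among the members. In this comparison 2 of 4 members were called, UPK1B and UPK3B, in opposite directions, where 24.7% of all genes were called.

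**Figure D2:**
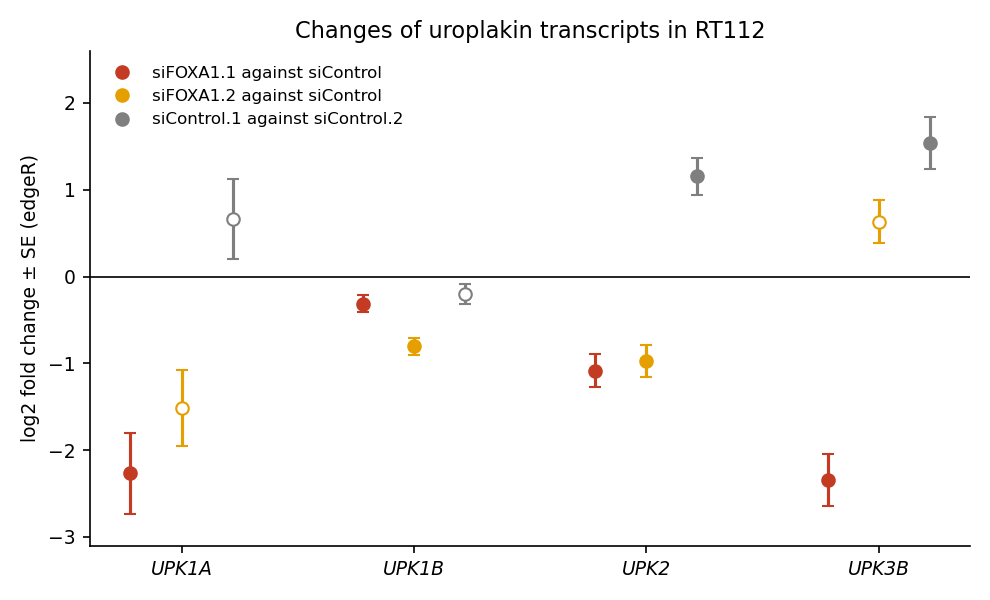
Log2 fold change (edgeR, bars are the SE) of each tested uroplakin in RT112 for siFOXA1.1 and siFOXA1.2, each against both controls, and for siControl.1 against siControl.2, with filled symbols for an adjusted p under 0.05. UPK3B is at -2.34 under siFOXA1.1 and at 0.63 under siFOXA1.2, and the difference between the controls is 1.15 for UPK2 and 1.53 for UPK3B.

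The control siRNAs also differed from each other. The log2 difference of siControl.1 over siControl.2 was 1.15 for UPK2 (SE 0.21, adjusted p = 0.00457, edgeR) and 1.53 for UPK3B (SE 0.30, adjusted p = 0.00791, edgeR). These are 2 of the 4 members tested, where 2.11% of all genes were called and 1.1% were called higher under siControl.1. UPK1A (log2 difference 0.66, SE 0.46, adjusted p = 0.636, edgeR) and UPK1B (log2 difference -0.20, SE 0.11, adjusted p = 0.496, edgeR) did not pass. The UPK3B difference was not called without siControl.2 replicate 1 (1.17, adjusted p = 0.0898, edgeR) or without siControl.1 replicate 2 (1.22, adjusted p = 0.110, edgeR). For UPK2 the difference between the controls was thus at least as large, in absolute value, as the change under either siRNA against FOXA1.

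Several calls depended on which control was used. Against siControl.2 alone, UPK2 was lower by 0.51 on the log2 scale under siFOXA1.1 (adjusted p = 0.0866, edgeR) and by 0.40 under siFOXA1.2 (adjusted p = 0.578, edgeR), and neither passed. Against siControl.1 alone, both passed, with log2 fold changes of -1.66 and -1.55. UPK3B under siFOXA1.2 was at -0.13 against siControl.1 alone (adjusted p = 0.930, edgeR) and was called higher, at 1.40, against siControl.2 alone (adjusted p = 0.0215, edgeR). UPK1A under siFOXA1.2 was called against siControl.1 alone (log2 fold change -1.84, adjusted p = 0.0489, edgeR) and not against siControl.2 alone (-1.18, adjusted p = 0.385). The fall of UPK3B and of UPK1A under siFOXA1.1 was called against either control alone, at -3.11 and -1.58 for UPK3B and at -2.596 and -1.94 for UPK1A. UPK1B under siFOXA1.2 was also called against either, at -0.70 and -0.91, whereas under siFOXA1.1 it was not called against siControl.1 alone (log2 fold change -0.21, adjusted p = 0.187, edgeR).

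**Figure D3:**
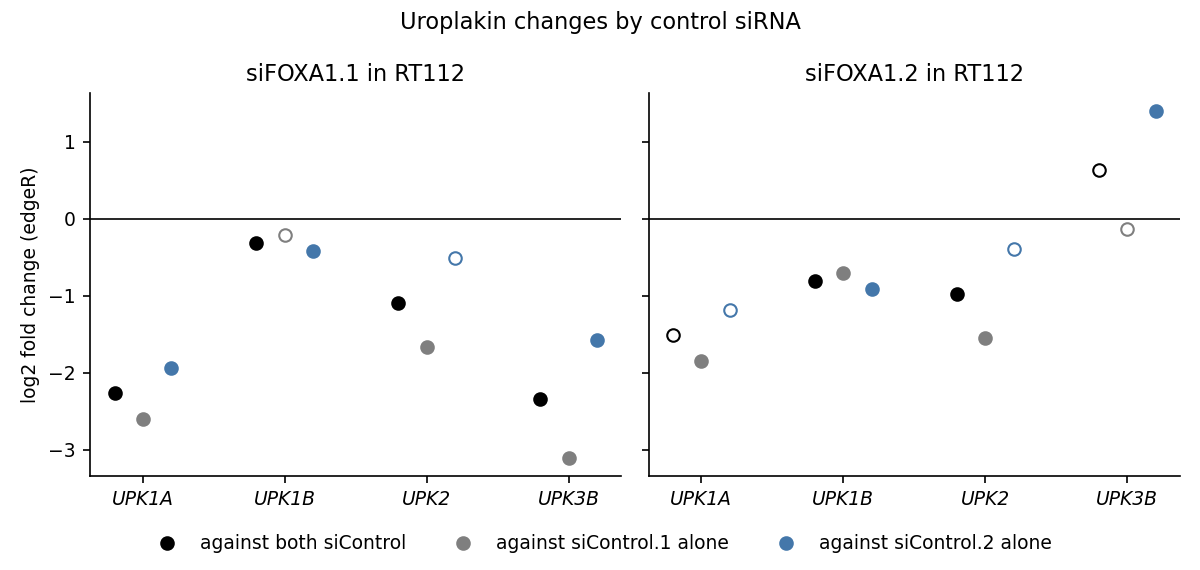
Log2 fold change (edgeR) of each tested uroplakin in RT112 under siFOXA1.1 and siFOXA1.2, set against both controls, siControl.1 alone or siControl.2 alone, with filled symbols for an adjusted p under 0.05. UPK3B under siFOXA1.2 moves from -0.13 to 1.40 with the control, while UPK1A and UPK3B under siFOXA1.1 stay filled with each control.

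Within each experiment batch the directions were mostly shared. As a percent of the mean siControl CPM of the same batch, UPK1A was at 14.5% and 22.2% under siFOXA1.1 (batches 1 and 2) and at 48.7% and 20.6% under siFOXA1.2. UPK1B was at 83.1% and 64.7% under siFOXA1.1 and at 52.8% and 59.7% under siFOXA1.2, and UPK2 at 49.6% and 29.8% and at 47.3% and 46.6%. UPK3B was at 21.0% and 12.7% under siFOXA1.1 and at 178% and 108% under siFOXA1.2. The 3 members that lay below the controls under both siRNAs did so in both batches.

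With the 4 siFOXA1 libraries of RT112 pooled against the 4 siControl libraries, 0 of 4 members passed in edgeR's quasi-likelihood test, where 0.0966% of all genes (13 of 13462) were called. At an unadjusted p under 0.05, 1616 genes passed in edgeR, and DESeq2 called 168 after adjustment. The log2 fold changes were -1.87 for UPK1A (adjusted p = 0.171, edgeR), -0.54 for UPK1B (adjusted p = 0.288), -1.14 for UPK2 (adjusted p = 0.252) and -0.39 for UPK3B (adjusted p = 0.861). DESeq2 called UPK1A (adjusted p = 0.00424) and UPK2 (adjusted p = 0.029), and so did edgeR without its low-count filter. Without siFOXA1.2 replicate 1, edgeR called UPK1A (log2 fold change -2.27, adjusted p = 0.0398). Compared singly on CPM, UPK1A, UPK1B and UPK2 had no overlap between siFOXA1 and siControl (exact permutation p = 0.0286 for each, two-sided, the smallest that 70 splits allow), as had 4.95% of all genes tested in the same direction, and UPK3B overlapped (exact permutation p = 0.571). Libraries of 1 siRNA are not independent in this permutation.

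Summed over the members, uroplakin transcripts of RT112 amounted to 1517 ± 72.9 CPM (SD, n = 4) with siControl and to 912 ± 128 CPM (SD, n = 4) with siFOXA1, with 1425 to 1604 CPM against 825 to 1101 CPM per library. UPK1B made up 64.5% and 65.1% of these counts under siControl.1, 81.0% and 84.3% under siControl.2, 82.6% and 87.7% under siFOXA1.1 and 70.1% and 76.5% under siFOXA1.2. The sum was thus alike under both controls, although its make-up differed, with more UPK2 and UPK3B under siControl.1. In SCaBER the sum was 14.1 ± 4.75 CPM (SD, n = 4) with siControl and 7.89 ± 2.6 CPM (SD, n = 4) with siFOXA1, mostly UPK2.

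**Figure D4:**
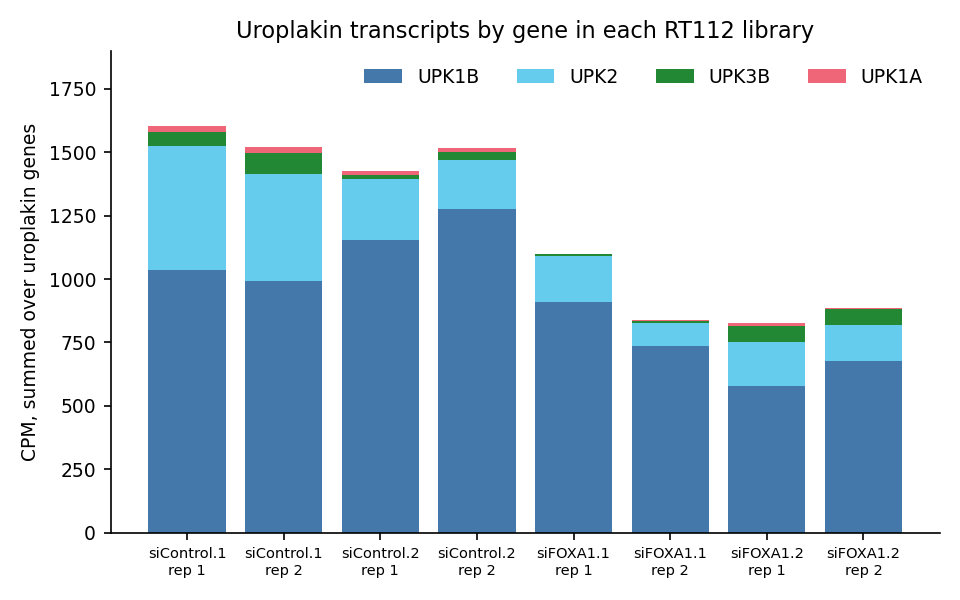
Stacked CPM of UPK1B, UPK2, UPK3B and UPK1A in each RT112 library (linear axis from 0). The 4 siControl bars reach 1425 to 1604 CPM and the 4 siFOXA1 bars 825 to 1101 CPM, and the UPK2 segment is largest in the siControl.1 libraries.

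The mitochondrial share was highest in the siFOXA1.1 libraries of RT112. With mitochondrial genes left out, the siFOXA1.1 changes were -2.27 for UPK1A, -0.31 for UPK1B, -1.09 for UPK2 and -2.34 for UPK3B on the log2 scale, as large as with them, and each was called. Both fits scale the libraries by TMM, so leaving these genes out could change little. The median log2 fold change of all genes was -0.02 in each. The part of the higher mitochondrial share in the uroplakin changes was not tested. Of 3 markers of other cell types, the leukocyte gene PTPRC had 0 counts in both lines. In RT112 the summed CPM of the 3 was 53.9 to 58.1 under siFOXA1.1 and 10.4 to 25.5 in the other libraries, through COL1A1, a fibroblast collagen gene (log2 fold change 2.79, SE 0.29, adjusted p = 4.2e-07, edgeR), and the part of this in the uroplakin changes was not tested. The endothelial gene PECAM1 was also tested under siFOXA1.1 and was not called. The median log2 fold change of these 2 genes was 0.28, so PECAM1 moved the other way.

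In SCaBER only UPK2 had enough counts to be tested against siControl. It was at 14.1 and 17.8 CPM under siControl.1, 15.4 and 7.29 CPM under siControl.2, 11.0 and 8.24 CPM under siFOXA1.1 and 2.62 and 6.5 CPM under siFOXA1.2. The siFOXA1.2 libraries were the lowest, and siControl.2 replicate 2 lay among the siFOXA1 libraries. Its log2 fold change was -0.46 under siFOXA1.1 (SE 0.52, adjusted p = 0.691, edgeR) and -1.54 under siFOXA1.2 (SE 0.56, adjusted p = 0.802, edgeR), so 0 of 1 passed, where 7.87% and 0.0373% of the 13407 genes tested were called. Without adjustment, 2830 and 702 genes passed 0.05 in edgeR, and DESeq2 called 1424 and 39 after adjustment. The 4 siFOXA1 libraries averaged 7.09 ± 3.50 CPM and the 4 siControl libraries 13.7 ± 4.50 CPM (SD), a difference with an exact permutation p of 0.0857, two-sided. Within the batches it was at 74.3% and 65.8% of siControl under siFOXA1.1 and at 17.7% and 51.9% under siFOXA1.2. These values rest on 17 to 114 counts per library.

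Whether the change of UPK2 differed between the lines was tested in a fit of all 16 libraries. The difference, RT112 minus SCaBER, was -0.63 on the log2 scale for siFOXA1.1 (SE 0.43, adjusted p = 0.551, edgeR) and 0.58 for siFOXA1.2 (SE 0.45, adjusted p = 1.00, edgeR). No difference between the lines was thus shown for UPK2, where 2.59% and 0.0453% of 15464 genes were called. The other members were at or under the floor in SCaBER, and their changes there could not be compared.

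Genes related to the uroplakins by function were examined as lists. The uroplakin gene regulators hold transcription factors known to act on urothelial differentiation, and 9 of 10 were tested in RT112. Under siFOXA1.1, 6 were lower and 0 higher, where 15.1% of all genes were called lower, with a median log2 fold change of -0.76 against -0.02 over all genes. The 6, the 9 and the median include FOXA1, the target of the siRNA, whose fall was set by the treatment. Besides FOXA1 itself the 6 included KLF5, a Krüppel-like factor (log2 fold change -1.66), GATA3, a zinc finger factor of Luminal cells (-0.83), and RXRA, the receptor that pairs with PPARG (-0.76). TP63, which is also among the basal line markers, fell further than these 3 (log2 fold change -2.54, adjusted p = 0.000938, edgeR). Under siFOXA1.2, where 0.899% of all genes were called lower, 1 of 9 was lower, ELF3, an ETS factor (log2 fold change -1.03, adjusted p = 0.000265, edgeR). ELF3 was also higher under siControl.1 than under siControl.2 (log2 difference 0.62, adjusted p = 0.0432, edgeR). DESeq2 and the replicate block each gave 2 of 9 regulators lower under siFOXA1.2, and limma on TPM gave 0. Between the lines under siControl, 6 of 9 regulators were higher in RT112, where 20.6% of all genes were, and 1, IRF1, an interferon-regulated factor, was higher in SCaBER.

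The list of uroplakin vesicle traffic holds genes that carry uroplakin vesicles to the apical membrane, and 11 of 13 were tested in RT112. Under siFOXA1.1, 4 were higher and 1 lower, which is 5 of 11 called where 29.1% of all genes were, with a median log2 fold change of 0.35. RAB11A, a small GTPase of recycling vesicles, rose by 0.99 and VAMP8, a vesicle fusion protein, by 0.84, while RAB8A, a GTPase of apical transport, fell by 0.62 on the log2 scale. These counts depended on scaling, with 2 higher and 2 lower by library totals alone and 0 higher and 2 lower by limma on TPM. The calls over all genes shifted too. Of them, 48% were higher with TMM, 37.8% by library totals alone and 19.5% by limma on TPM. Under siFOXA1.2, 1 of 11 was lower, where 0.899% of all genes were, SYTL2, a protein that binds RAB27 (log2 fold change -1.31, adjusted p = 0.0305, edgeR).

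**Figure D5:**
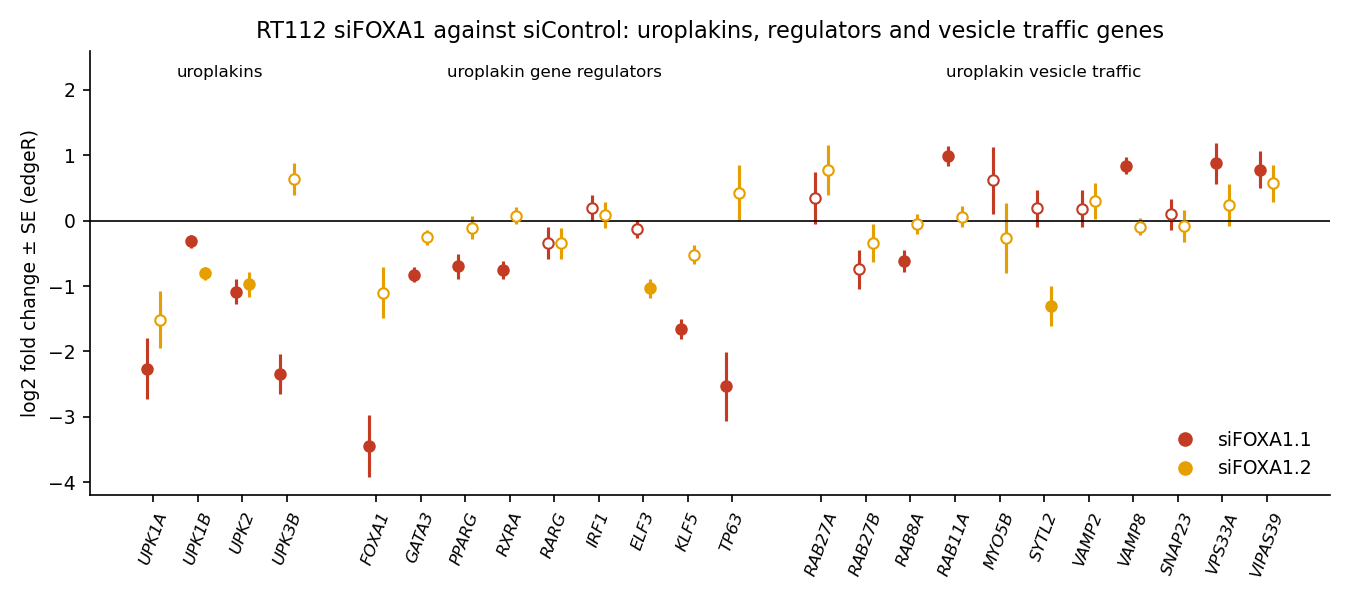
Log2 fold change (edgeR, bars are the SE) in RT112 under siFOXA1.1 and siFOXA1.2 against siControl for the tested uroplakins, their regulators and the vesicle traffic genes, with filled symbols for an adjusted p under 0.05. Under siFOXA1.1, 6 regulators, the siRNA target FOXA1 among them, are filled below 0, while 4 traffic genes are filled above 0 and 1 below.

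Other tetraspanins moved in both directions. Of 9 tested, 3 rose under siFOXA1.1 (CD63 by 0.82, CD9 by 0.98 and CD82 by 0.81 on the log2 scale) and 4 fell, among them TSPAN6 (log2 fold change -0.999), where 29.1% of all genes were called. By limma on TPM, 0 were higher and 4 lower, where 3129 of 12788 genes were called and 19.5% of those were higher. Of 14 urothelial markers tested in RT112, 6 fell and 2 rose under siFOXA1.1, where 15.1% of all genes were called lower and 29.1% in either direction, and 3 fell under siFOXA1.2, where 0.899% were called lower. DESeq2, which called 385 genes in all, gave 6 of 14 lower under siFOXA1.2, as did the replicate block. Limma on TPM, which called 27 in all, gave 1 of 13. S100P, a calcium-binding protein, fell by 2.59 and 1.28 on the log2 scale under the 2 siRNAs, and PSCA, a surface antigen, by 3.07 and 2.21. FABP4, a fatty acid binding protein, fell by 2.89 under siFOXA1.1 and was at -0.014 under siFOXA1.2 (adjusted p = 0.992, edgeR). CLDN4, a tight junction claudin, rose by 1.40 under siFOXA1.1 and was at -0.14 under siFOXA1.2 (adjusted p = 0.768, edgeR). As for UPK2 and UPK3B, the controls differed in this list, with 5 of 14 higher under siControl.1 than under siControl.2 where 1.1% of all genes were, PSCA by 1.71 (adjusted p = 1.75e-05, edgeR) and S100P by 0.98 (adjusted p = 1.27e-05, edgeR). The count was 6 by DESeq2 or with the replicate block. It was 0 of 13 by limma on TPM, which called 15 genes in all. Between the lines under siControl, 14 of 14 were higher in RT112, where 20.6% of all genes were. Only 9 markers of this list had enough counts to be tested within SCaBER. The rest of the 14 entered through RT112, which set their direction in advance. By limma on TPM, 10 of 13 were higher in RT112, where 5691 of 13842 genes were called and 27.5% of those were higher.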

How the data were processed

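RNA from 16 libraries was prepared with a 3′ mRNA kit (QuantSeq FWD). The authors deposited raw counts per gene and TPM values. Per the deposited configuration and labels, reads were trimmed with TrimGalore 0.6.2 and aligned to hg38 with STAR 2.6.1a on GENCODE 29, and the methods of the study name hg19. Counts were fitted in R 4.3.3 with edgeR 4.0.16 (TMM, filterByExpr, quasi-likelihood F test, Benjamini-Hochberg adjustment over all genes tested, threshold 0.05), each line separately with 1 mean per siRNA. siControl is the mean of both controls. The test was run on simulated counts that varied less between libraries than the data do, with changes only in genes of higher counts. That run does not show how the test performs at the spread and depth of these data. Alternatives were DESeq2 1.42.0, limma 3.58.1 on log2(TPM + 0.5), RLE or library-total scaling, no filter, a replicate block, each control alone and each library left out. Leaving out mitochondrial genes and filtering on groups of 4 were added after the data were seen. CPM were compared by exact permutation in Python 3.11.15.

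The members and lists were chosen with earlier results of these data known. The text names the 5 members, FOXA1, at most 4 genes per list and comparison by smallest p, and the 3 genes most like each tested member, of which 1 is not reported here. COL1A1, PECAM1 and TP63 were named after their values were seen. Replicate numbers mark an experiment batch in the labels, which pairs the samples, but deviations of same-numbered RT112 libraries correlated at only -0.0127 to 0.0156 across genes (SCaBER 0.0152 to 0.211). Chromosome positions and promoters are from RefSeq, GRCh38.p14.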

Additional observations from a re-analysis of the deposited data

How the results depend on the processing

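Of the 536 values recomputed for single members, 506 kept their direction and side of the threshold. These include values that could hardly move. Every value between the lines, of UPK2 within SCaBER and of its difference between the lines stayed the same. All the changes fell in the comparisons of siRNAs within RT112, so the share kept is lower there. With limma on TPM, 0 members were called under siFOXA1.2, 1 between the siFOXA1 siRNAs and 0 between the controls, and the median log2 fold change of all genes under siFOXA1.1 moved from -0.02 to -0.34, with 19.5% rather than 48% of calls higher (37.8% by library totals alone). In the pooled RT112 comparison, 2 members were called without the low-count filter and 2 with DESeq2. Leaving out 1 library gave 1 to 3 members called between the siFOXA1 siRNAs (1 without siFOXA1.2 replicate 1, 3 without siFOXA1.1 replicate 1), 1 to 2 between the controls (1 without siControl.2 replicate 1 or siControl.1 replicate 2, where UPK3B lost its call) and 0 to 1 in the pooled comparison (UPK1A, adjusted p = 0.0398 in edgeR without siFOXA1.2 replicate 1). Direction reversed for UPK3B under siFOXA1.2 against siControl.1 alone (log2 fold change -0.13), for UPK2 between the siFOXA1 siRNAs without siFOXA1.2 replicate 1 (0.02) or siFOXA1.1 replicate 2 (0.27, with a range of -0.66 to 0.27 over the libraries left out), and for pooled UPK3B without siControl.1 replicate 2 (0.047, with a range of -0.85 to 0.047) or against siControl.2 alone (0.57), where no call was made. UPK2 under siFOXA1.2 was not called with DESeq2 (log2 fold change -0.97, adjusted p = 0.0507), nor UPK1B under siFOXA1.1 with limma on TPM (-0.63 against -0.31 in edgeR, adjusted p = 0.0565). With the replicate block 4 and 2 members were called under siFOXA1.1 and siFOXA1.2, as without it, and no member's call changed. Calls over all genes, with every library kept, ranged from 27 (limma) to 385 (DESeq2) under siFOXA1.2 in RT112 (239 reported), from 15 to 449 between the controls (284), from 0 to 168 when pooled (13), and in SCaBER from 150 to 1442 under siFOXA1.1 (1055) and 4 to 42 under siFOXA1.2 (5). With 1 library left out the ranges were 154 to 586, 138 to 671, 0 to 52, 757 to 1599 and 0 to 61. The cause of these shifts was not tested. In SCaBER only UPK2 was above the floor of 3 counts in every library.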

Other observations

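The genes whose CPM profile over the 8 RT112 libraries was most like that of a uroplakin differed from member to member. By Pearson's r of log2(CPM + 1) among 13462 genes, they included FAM98B (0.97) and TXNL4A (0.97) for UPK1A, CEACAM6 (0.98), MTPN (0.97) and SNRPB2 (0.96) for UPK1B, ANXA11 (0.97), CRIP2 (0.96) and ZNF703 (0.96) for UPK2, and JOSD1 (0.99), KIAA1522 (0.98) and ERLIN1 (0.98) for UPK3B. No uroplakin was among the 3 genes most like another. UPK1A and its partner UPK2 had an r of 0.79, and UPK1B and its partner UPK3B an r of -0.11. In SCaBER the genes most like UPK2 were RPS26, DCUN1D4 and PLCE1 (r of 0.92, 0.92 and 0.91 over 8 libraries). These values describe 8 libraries that share 4 siRNAs, their depth and their scaling, and high values are to be found among so many genes.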
